A study of Drosophila melanogaster with 4 samples.

Results

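Lipids travel through a fly's haemolymph on lipophorin, a lipoprotein that the fat body assembles and that receptors on other tissues bind. The fat body, which also surrounds the brain inside the head, makes fatty acids, keeps triglyceride in droplets and secretes storage and yolk proteins. The 10 genes described here belong to that system: apolpp, Desat1, FASN1, AcCoAS, Lsd-2, Acox3, Acsf2, sxe2, Yp2 and Lsp2. They were matched by symbol among 1449 genes with a value, and 1444 genes, these 10 included, had one on at least 3 arrays. The genes were chosen by their log2 ratios on these same arrays, with earlier results known, so their values are a description and carry no test.

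Heads came from Drosophila melanogaster males of the wild-type strain Oregon-R that had not mated. The flies were 3 to 4 days old when treatment began. For 7 days they ate food with 1.5 mg/ml pilocarpine or normal food without it. Pilocarpine is an agonist of muscarinic acetylcholine receptors. Each of 4 two-colour cDNA arrays carried treated and untreated RNA of one parallel set of vials, 30 flies to a vial at the start, as pools of heads. The 4 arrays are 4 biological replicates per the labels. Since heads were pooled whole, fewer cells of a type and less RNA per cell cannot be told apart.

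Each value is the log2 ratio of the treated to the untreated RNA, with the median gene of each array set to 0. Treated RNA carried the red dye Cy5 on replicates 1 and 2 and the green dye Cy3 on replicates 3 and 4, and the labels do not say which channel is the numerator. If the deposited ratio is red over green, replicates 3 and 4 must be turned in sign. That reading is used below and is likely, because GenePix software reports red over green by default and the design text names the red wavelength before the green one in a spot filter, but it is not settled. If the ratio is treated over untreated on every array, replicates 3 and 4 keep the deposited sign and replicates 1 and 2 are as before. Values for that second reading are called "the other reading". Were green the numerator, every sign of the first reading would be inverted. The arrays held values for 6257, 4428, 6392 and 5527 spots for replicates 1 to 4, and their gene medians before centring were -0.14, -0.53, -0.26 and -0.42. The array number limits the precision, and signal levels were not analysed here.

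The highest mean belonged to the transport gene apolpp. It encodes the apolipophorin precursor that forms the protein part of lipophorin, and it had log2 ratios of 0.48, 1.99, 1.55 and 1.85 on replicates 1 to 4. It was above the array median on all 4, with replicate 1 well below the other three. The mean was 1.47 ± 0.68 (SD, n = 4), a 2.77-fold higher level with pilocarpine. On replicates 2, 3 and 4 it ranked 2, 6 and 3 from the top of 964, 1444 and 1245 genes, and on replicate 1 it ranked 51 of 1427. Replicates 3 and 4 were at -1.55 and -1.85 in the other reading, opposite to replicates 1 and 2, and the mean was -0.23 ± 1.81 (SD, n = 4). Its spread over arrays was then larger than its mean. The array had 2 probes for apolpp, and 1 of them had a value.

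Over all genes, limma called 2 of 1444 higher (adjusted p below 0.05), which is 0.139% of genes, and 0 lower, with 103 at an unadjusted p below 0.05 in either direction. The 2 were apolpp and Obp19c, an odorant-binding protein gene. The choice of apolpp used this contrast, so nothing is read from its place among the called genes. Its call ended without replicate 2, without replicate 4, with the second of each pair of duplicate spots alone, with probes tested singly and in the other reading, in which limma called 0 genes and 122 had an unadjusted p below 0.05. Its mean stayed between 1.29 and 1.80 over the leave-one-out settings.

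**Figure D1:**
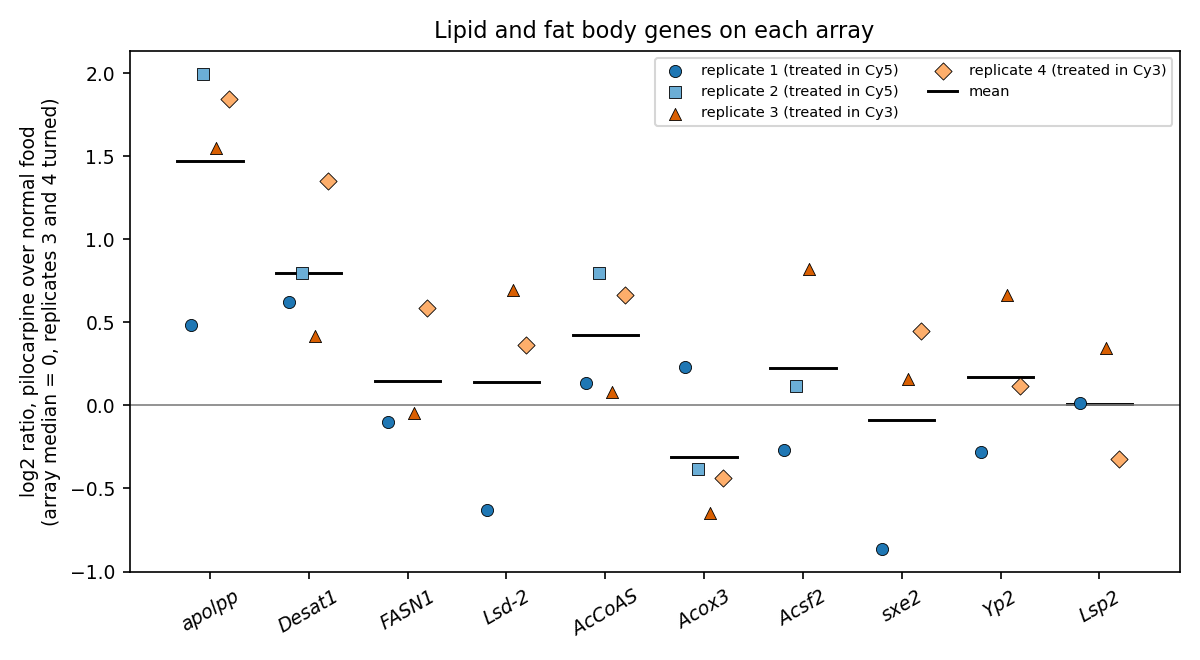
Log2 ratio of pilocarpine over normal food (y axis, array median at 0, red-over-green reading) for the 10 genes (x axis); each marker is 1 array and each bar the mean. All markers of apolpp, Desat1 and AcCoAS lie above 0. Replicate 1 is the lowest array for apolpp, FASN1, Lsd-2, Acsf2, sxe2 and Yp2.

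Of the genes that make fatty acids, Desat1 and AcCoAS had the next highest means after apolpp, and FASN1 ranked lower. Desat1, the acyl-CoA desaturase that puts the first double bond into saturated fatty acids, was at 0.62, 0.80, 0.42 and 1.35 on replicates 1 to 4. It was above the median on every array, and the highest value was that of replicate 4. The mean was 0.80 ± 0.40 (SD, n = 4), or 1.74-fold, and in the other reading it was -0.09 ± 1.00 (SD, n = 4). One probe of the 3 listed for Desat1 had a value.

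AcCoAS, the synthetase that turns acetate into acetyl-CoA, the building block of fatty acids, was at 0.14, 0.80, 0.08 and 0.67. All 4 arrays were above the median, but replicates 1 and 3 by no more than the difference between its duplicate spots, which was 0.14 and 0.25 there. The mean was 0.42 ± 0.36 (SD, n = 4), or 1.34-fold, and 0.05 ± 0.60 (SD, n = 4) in the other reading.

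FASN1 encodes the fatty acid synthase that extends acetyl-CoA into long-chain fatty acids. It had no value on replicate 2 and was at -0.10, -0.04 and 0.59 on replicates 1, 3 and 4. Only replicate 4 was above the median. The mean of 0.15 ± 0.38 (SD, n = 3) was smaller than its spread, became -0.07 without replicate 4, and was -0.21 ± 0.33 (SD, n = 3) in the other reading.

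The sign of replicates 1 and 2 is the same in both readings. Both arrays measured 5 of the 10 genes, and apolpp, Desat1 and AcCoAS were above the median on both. Of 947 genes measured on both arrays, 22.1% were above the median on both. Over all arrays that measured them, the same 3 of the 10 genes were above the median throughout, against 9.42% of the 1444 genes. These counts come from the contrast that chose the genes and are given as a description.

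Genes of fatty acid breakdown and activation did not share one direction. Acox3, named as an acyl-CoA oxidase, an enzyme of the first step of peroxisomal oxidation, was at 0.23, -0.39, -0.65 and -0.44. It was below the median on 3 of 4 arrays and above it on replicate 1. The mean was -0.31 ± 0.38 (SD, n = 4), or 0.807-fold, the lowest of the 10 genes, and 0.23 ± 0.45 (SD, n = 4) in the other reading. Acsf2, named for a mammalian family of acyl-CoA synthetases, had no value on replicate 4 and was at -0.27, 0.11 and 0.82 on replicates 1 to 3. The values lay on both sides of 0, with replicate 3 the highest. The Acsf2 mean was 0.22 ± 0.55 (SD, n = 3), -0.08 without replicate 3 and -0.33 ± 0.47 (SD, n = 3) in the other reading.

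The droplet gene Lsd-2 and the lipase-like gene sxe2 each had an SD of 0.69 in the first reading, close to the 0.68 of apolpp. In the other reading their SDs were 0.18 and 0.35, beside 1.81 for apolpp. Lsd-2, a perilipin that coats lipid droplets and restrains their breakdown, had no value on replicate 2 and was at -0.63, 0.69 and 0.36 on replicates 1, 3 and 4. Its mean of 0.14 ± 0.69 (SD, n = 3) thus joins a low replicate 1 to 2 higher arrays. The other reading put all 3 arrays below the median, at -0.63, -0.69 and -0.36, with a mean of -0.56 ± 0.18 (SD, n = 3). The value of replicate 4 rests on duplicate spots that disagreed, at deposited log2 ratios of -1.20 and -0.37, and with the second spots alone the mean in the first reading was -0.05. Without replicate 3 it was -0.13.

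The gene sxe2 (sex-specific enzyme 2) encodes a lipase-like protein known from the fat body of male heads. It was at -0.86, 0.16 and 0.45 on replicates 1, 3 and 4, and had no value on replicate 2. Replicate 1 stood apart below the other two. The mean was -0.09 ± 0.69 (SD, n = 3), 0.10 without centring of the arrays, and 0.30 without replicate 1. The other reading had all 3 arrays below the median and a mean of -0.49 ± 0.35 (SD, n = 3).

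Yp2 and Lsp2 encode secreted proteins of the fat body. Yp2, a yolk protein related to lipases and made mainly by females, was at -0.28, 0.67 and 0.12 on replicates 1, 3 and 4, with a mean of 0.17 ± 0.47 (SD, n = 3) and of -0.08 without replicate 3. All 3 arrays were below the median in the other reading, with a mean of -0.35 ± 0.28 (SD, n = 3). Its duplicate spots differed by 0.07 or less on replicates 1 and 4 and by 0.31 on replicate 3. Lsp2, a storage protein of larvae that the adult fat body also makes, was at 0.01, 0.34 and -0.32 on the same arrays, with a mean of 0.01 ± 0.33 (SD, n = 3) of -0.15 without replicate 3 and of 0.00 in the other reading. Its arrays lay at, above and below the median. cDNA spots can also bind RNA of close relatives such as Yp1 and Yp3, and that share was not tested.

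**Figure D2:**
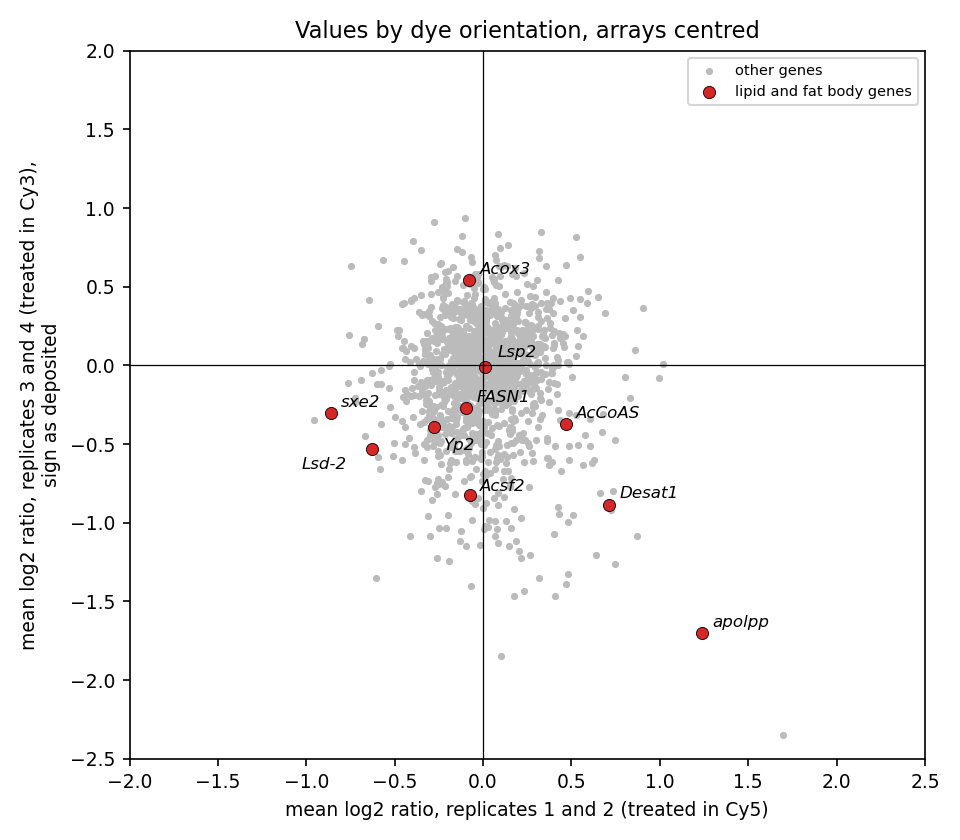
Mean log2 ratio of replicates 1 and 2, with treated RNA in Cy5 (x axis), against that of replicates 3 and 4, with treated RNA in Cy3 and the deposited sign kept (y axis); red points are the 10 genes and grey points the other genes, arrays centred. The genes apolpp, Desat1 and AcCoAS lie at the lower right, and Lsd-2, sxe2, Yp2, FASN1 and Acsf2 at the lower left.

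Set side by side, the dye orientations divided the 10 genes evenly, as the plot of values by dye orientation shows. For apolpp, Desat1, AcCoAS and Lsp2 the mean was above 0 in both orientations once replicates 3 and 4 were turned, which held for 24.2% of all 1444 genes. For Acox3 it was below 0 in both, as for 23.6% of genes. Together these are 5 of 10, against 47.9% of 1444 genes with the same sign in both. The other 5, FASN1, Lsd-2, Acsf2, sxe2 and Yp2, were below 0 in both orientations with the deposited sign kept, where 25.6% of all genes were. For FASN1, Lsd-2, sxe2, Yp2 and Lsp2 the Cy5 orientation is replicate 1 alone, and for Acsf2 the Cy3 orientation is replicate 3 alone. The Cy5 mean of Acsf2 joins -0.27 and 0.11, and FASN1 was at 0.04 on replicate 3 with the deposited sign. For apolpp the mean of replicates 1 and 2 was 1.24 and that of replicates 3 and 4, turned, was 1.70. For Desat1 these were 0.71 and 0.88, and for AcCoAS 0.47 and 0.38. For Lsp2 they were 0.01 and 0.01, so its sign rests on values near 0, with replicates 3 and 4 at 0.34 and -0.32. For Acox3 they were -0.08 and -0.54, with replicates 1 and 2 at 0.23 and -0.39. For Lsd-2, by contrast, they were -0.63 and 0.53, and for sxe2 -0.86 and 0.30, each with replicate 1 alone on the Cy5 side.

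The dye term is the mean of the Cy5 orientation and of the Cy3 orientation with its deposited sign, and it equals the mean of the other reading where all 4 arrays have a value. It was -0.58 for both Lsd-2 and sxe2 and between -0.45 and 0.23 for the other 8 genes. Dye and treatment in the other reading cannot be told apart on these arrays.

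As a group, 8 of the 10 genes had a mean above 0, where 51.9% of all 1444 genes did. The median of the 10 means was 0.16, beside 0.01 over all genes. Without replicate 3 the count was 4 of 10 and the median -0.08. In the other reading 2 of 10 had a mean above 0, against 50.4% of all genes, and the medians were -0.22 for the 10 and 0.00 for all. There 3 of the 10, Lsd-2, sxe2 and Yp2, were below the median on every array that measured them, which held for 12.7% of all genes.

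In the first reading the SDs of the 10 genes over arrays ranged from 0.33 for Lsp2 to 0.69 for Lsd-2. Their median was 0.44, beside 0.30 over all genes. The other reading gave 0.18 for Lsd-2 to 1.81 for apolpp, with medians of 0.40 and 0.27. Replicate 1 was the lowest array for 6 of the 10 genes in the first reading, as for 31.7% of all 1444 genes. In the other reading apolpp and FASN1 were lowest on replicate 4, Lsd-2, Acsf2 and Yp2 on replicate 3, and sxe2 still on replicate 1. On replicates 1 and 2, 5 of 10 and 4 of 5 were above the median in both readings. On replicates 3 and 4 these counts were 8 of 10 and 7 of 9 in the first reading, and 2 of 10 and 2 of 9 in the other.

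Duplicate spots show how much of that spread lies within an array. Over the 34 pairs of duplicate spots of the 10 genes the median difference was 0.09, beside 0.13 over 5292 pairs of all listed genes. Only 1 of the 34 pairs differed by more than 0.5, that of Lsd-2 on replicate 4 at 0.83, which compares with 3.84% of all pairs. For apolpp the spots differed by 0.09 at most, a small amount beside its range of 0.48 to 1.99 over arrays.

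**Figure D3:**
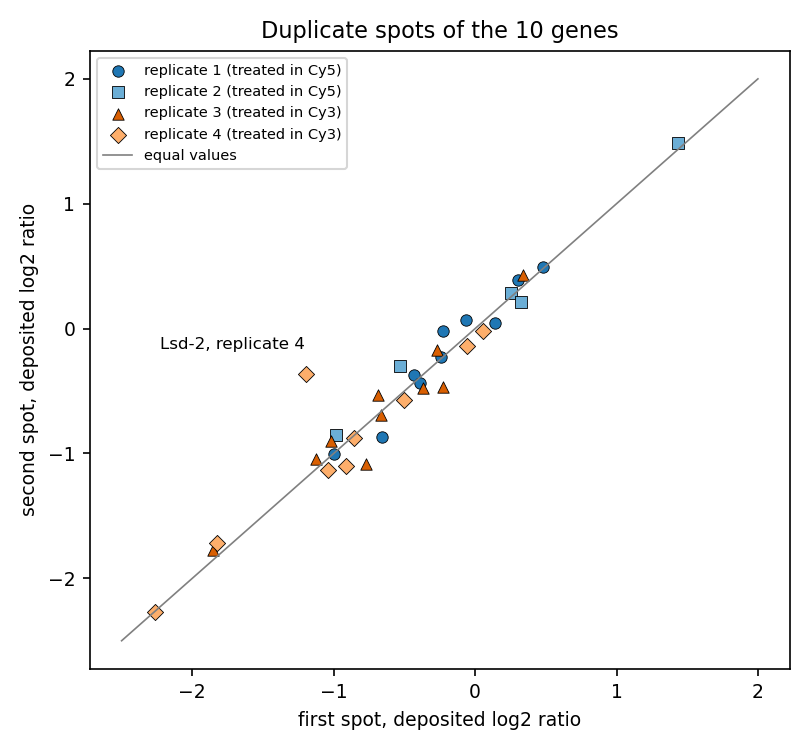
Deposited log2 ratio of the second spot (y axis) against the first (x axis) for the 34 spot pairs of the 10 genes, with the line of equal values; neither centred nor turned. The pair of Lsd-2 on replicate 4 differs by 0.83, and the other pairs by 0.31 at most.

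Other genes of lipid metabolism were counted in 5 lists, which held 25 tested genes, the 10 among them. Of the other 15, none passed the test over all genes (limma, lowest adjusted p = 0.755, and 0.704 in the other reading); 5 had a mean above 0 and 10 below. Their median was -0.08, beside 0.01 over all genes, and it was 0.025 without centring and 0.038 in the other reading. In this fit the lists held no called gene apart from apolpp. With a dye term, 9 of the 748 genes on all 4 arrays were called, apolpp and Desat1 among them. Both were chosen from this contrast, so nothing is read from those calls.

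Of 7 other genes of lipoprotein transport and lipid uptake, none passed. The lowest was emp, a scavenger receptor gene of the CD36 family, at -0.33 ± 0.27 (SD, n = 3; limma adjusted p = 0.827). The receptors that bind lipophorin are encoded by LpR1 and LpR2, which were named after their values were seen. LpR1 was at 0.04, -0.09, -0.19 and -0.23 on replicates 1 to 4 and LpR2 at 0.15, -0.02, 0.23 and 0.35. The value farthest from 0 was 0.35, for LpR2 on replicate 4, and the means were -0.12 ± 0.12 and 0.18 ± 0.16 (SD, n = 4 each; limma adjusted p = 0.945 and 0.917).

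In the synthesis list the 2 other genes were Hacd2 and FASN3, and neither passed. FASN3, a fatty acid synthase of the oenocytes, was the lowest at -0.08 ± 0.57 (SD, n = 4; limma adjusted p = 0.972), with replicate 1 at 0.75 and the remaining arrays below 0. In the list of activation and oxidation, the long-chain acyl-CoA synthetase gene bgm was the highest at 0.48 ± 0.66 (SD, n = 3; limma adjusted p = 0.755), with values of 0.47, -0.18 and 1.15 on replicates 1 to 3. Among 3 other droplet and triglyceride genes Pect, an enzyme of phosphatidylethanolamine synthesis, was at 0.36 ± 0.42 and mdy, a diacylglycerol acyltransferase, at -0.16 ± 0.33 (SD, n = 3 each; limma adjusted p = 0.830 and 0.945). All of these means differed from 0 by less than their SD.

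**Figure D4:**
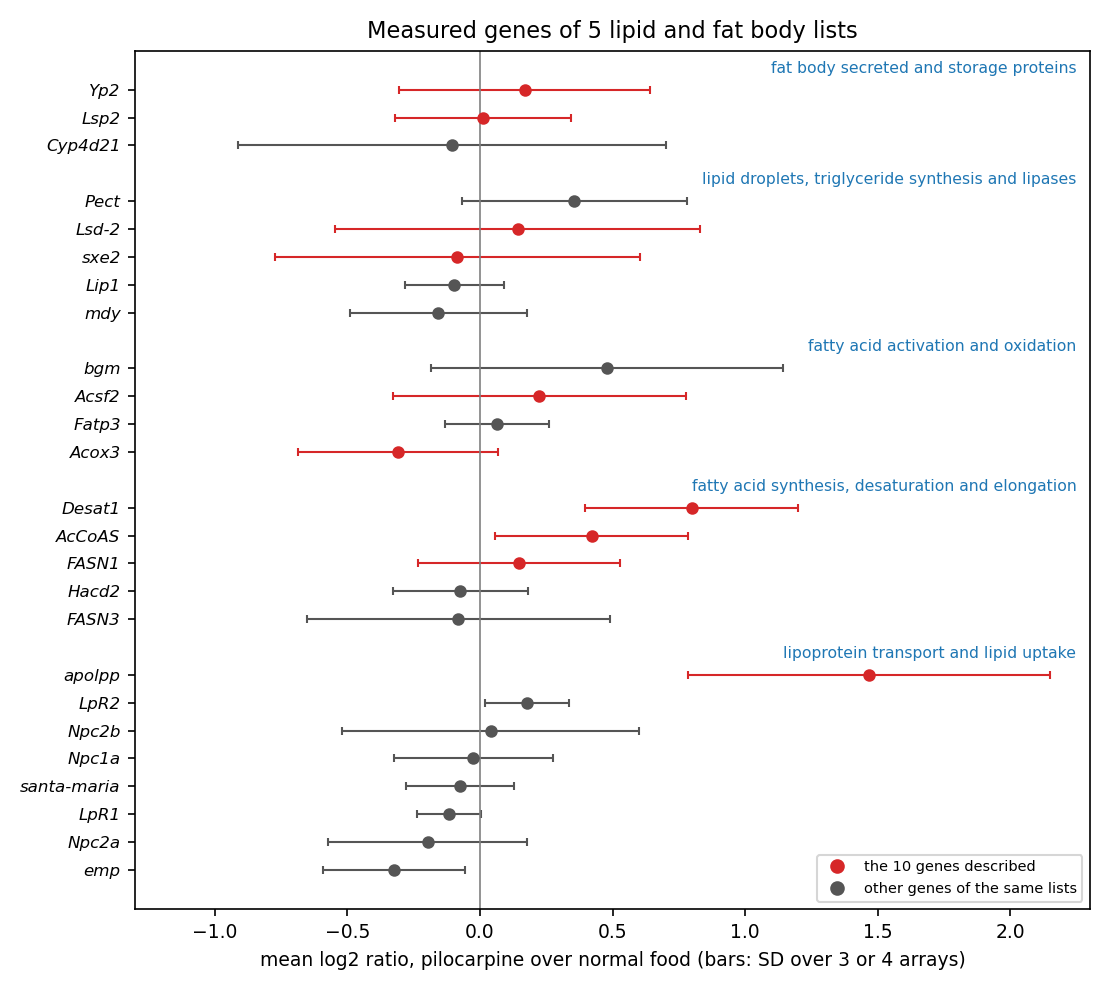
Mean log2 ratio (x axis, red-over-green reading, arrays centred) of the 25 tested genes of 5 lists, with bars of 1 SD over 3 or 4 arrays; red marks the 10 genes and grey the other 15. The means of apolpp (1.47) and Desat1 (0.80) lie above those of the 15 grey genes, which stay between -0.33 and 0.48. The bars of apolpp and Desat1 both overlap that of bgm, and the bar of Desat1 overlaps those of Pect and other grey genes as well. The red genes were chosen by values on these same arrays.

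The fat body list added Cyp4d21, a cytochrome P450 gene also called sex-specific enzyme 1 and known, like sxe2, from male head fat body. It was at -1.22, 0.41, -0.17 and 0.56 on replicates 1 to 4, with a mean of -0.11 ± 0.81 (SD, n = 4; limma adjusted p = 0.972). On replicate 1 it was the lowest of 1427 genes, and sxe2 was the fourth lowest. On replicate 4 they were at 0.56 and 0.45, on the other side of the median. Replicate 3 had them on opposite sides, with Cyp4d21 at -0.17 and sxe2 at 0.16, and sxe2 had no value on replicate 2. The pair was set side by side after the values were seen, and it rests on single pools of heads.

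Of 13 marker genes of the fat body, 12 had a probe and 8 a value on at least 3 arrays, 7 of them among the 10 genes. Yp1, Yp3, fit and Fbp1 had a probe but no value. Since ratios hold no levels, how strongly the heads expressed these markers was not analysed here. Of 22 marker genes of the gut 4 were tested, at -0.24 to 0.11. The haemocyte gene Col4a1 was at 0.15, the testis gene ocn at 0.54 ± 0.61 (SD, n = 3), and no ovary gene was tested. None passed, and their part in the values above was not tested.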

How the data were processed

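Per the labels and the design text, slides were scanned on a GenePix scanner, quantified in GenePix Pro 6.0 and ratio-normalized in Acuity 4.0, and the authors kept spots that passed filters on saturation, flags, uniformity and signal over background. On the deposited log2 scale, each value compares the 2 dyes of a spot. The base was read from the values, because the highest one, found in 11 cells, is the log2 of 100000. Those cells were left out as a ceiling. Paired spots (all pairs list the same gene) and then probes of a gene were averaged within each array, and each array was centred on its median gene. The platform annotation listed 1 gene for 1510 of 3236 probes, several for 13 and none for 1713. Symbols were updated through the Release 6 plus ISO1 MT gene table, and 29 probes had an ID without a match there. No coordinates or sequences are given. The mean of each gene with 3 or more arrays was compared with 0 by limma's moderated test (version 3.58.1, R 4.3.3; two-sided, Benjamini-Hochberg threshold 0.05), a step tested on simulated data. Genes named beside the 10 are those past the threshold and the highest and lowest of each list, with exceptions stated. The members and lists were chosen with earlier results of these data known. Alternatives were the other reading, no centring, centring over probes, scaling, the ceiling kept, single spots and leaving out each array.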

Additional observations from a re-analysis of the deposited data

How the results depend on the processing

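The direction of replicates 3 and 4 decided most signs. In the other reading the median of the 10 means was -0.22, 2 of 10 means were above 0, 0 genes passed, 0 of them in the lipid lists, and the median of the 15 other lipid genes was 0.038. Means then were -0.23 for apolpp, -0.086 for Desat1, -0.56 for Lsd-2, 0.23 for Acox3 and -0.35 for Yp2. Without centring as well, the median was -0.53, 0 of 10 means were above 0 (over all 1444 genes the median was -0.31 and 5.82% were above 0), and the values were -0.57 for apolpp, -0.42 for Desat1, -0.49 for FASN1, -0.83 for Lsd-2, -0.29 for AcCoAS, -0.64 for Acsf2 and -0.63 for Yp2. Over the 10 alternatives that keep the direction, apolpp, Desat1, AcCoAS and Acox3 kept the sign of their means and the other 6 genes changed it in 1 to 3. Those 4 genes were measured on all 4 arrays and the other 6 on 3 arrays. Keeping the ceiling changed no mean of the 10 genes. Leaving out replicate 2 could not change the means of the 5 genes without a value there. Without centring alone the median of the 15 other genes was 0.025.

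Of genes past the threshold there were 2 in the main setting, 1 with odd spots only and 0 with even spots only (0 in the lipid lists). There was 1 among genes on all 4 arrays, and 0 of 3216 single probes passed (limma, 170 at an unadjusted p below 0.05). With a dye term 9 of 748 genes passed, which include apolpp and Desat1 but not Obp19c, measured on 3 arrays. Nothing is read from the calls of apolpp and Desat1, which were chosen from this contrast. Leaving out 1 array gave 0 to 18 genes, 0 to 2 in the lipid lists, 4 to 9 means above 0 and a median from -0.08 to 0.43; the 18 came without replicate 3. With even spots only 96 genes had an unadjusted p below 0.05, without replicate 2 there were 66 and without replicate 4 there were 60. The cause of these changes was not tested. Genes on 2 remaining arrays were kept in the leave-one-out fits. Each array is a treated-to-untreated pair, so the test of its ratios against 0 already uses that pairing. The labels give 1 group of ratios, and no further pairing was made.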
